A study of Mus musculus with 11 samples.

Results

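Nodal and Activin are ligands of the TGF-β superfamily, and 9 genes of their pathway were followed by name through the libraries of mouse naive extra-embryonic endoderm (nEnd): the ligand genes Nodal and Gdf3, the coreceptor gene Tdgf1, the genes of the secreted inhibitors Lefty1, Lefty2 and Cer1, and the receptor genes Acvr1b, Acvr2a and Acvr2b. They are 9 of the 48952 genes in the bulk table and 9 of the 32285 genes in the single-cell tables. All 9 were listed in both, and 8 of the 9 passed the filter on low counts in the bulk table, Cer1 being the exception.

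Nodal and Activin bring together a type II receptor, encoded by Acvr2a or Acvr2b, and the type I receptor encoded by Acvr1b, which then phosphorylates SMAD2 and SMAD3. Nodal and GDF3 need the GPI-anchored coreceptor encoded by Tdgf1 (Cripto), whereas Activin does not. Nodal, Lefty1 and Lefty2 are themselves targets of the pathway in the early embryo, so that the ligand amplifies its own expression and that of its diffusible inhibitors. In the blastocyst and the egg cylinder the ligand is made by the epiblast (Epi), the neighbouring tissue of the primitive endoderm (PrE) that nEnd models, and Lefty1 and Cer1 are also known from an anterior domain of the visceral endoderm.

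The cells grew on feeder fibroblasts in RACL, a medium that supplies Activin A together with CHIR99021 and LIF, so that the receptors had a ligand in every group whatever the cells made. Bulk RNA-seq covered 1 nEnd line with an OCT4-mCherry reporter, sorted on that reporter and on surface PDGFRA into Pdgfra+ (PDGFRA only), DP (both) and Oct4+ (reporter only) cells, with 3 libraries each. Droplet single-cell RNA-seq covered Oct4-LOF nEnd, a line that is homozygous for an Oct4 (Pou5f1) allele deleted by 4-hydroxytamoxifen (4OHT), grown from PDGFRA-positive sorted cells. A treated culture (+4OHT) and an undosed one (-4OHT) gave 1 library each. Both single-cell libraries carry the allele, so the control is the same line without the drug, and neither has a replicate.

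Bulk libraries held 8019631 to 11642571 reads. The sort was visible in its own genes, since Pou5f1 stood at 8.37 to 26.4 CPM (reads scaled to a common library size) in Pdgfra+, 132 to 310 in DP and 861 to 1137 in Oct4+, and Pdgfra at 420 to 967 in the PDGFRA-positive groups and 4.96 to 12.1 in Oct4+. The summed level of 8 fibroblast markers, for the feeders, was 1.59 to 13.5 CPM in the Pdgfra+ and DP libraries and 155.8, 21.7 and 9.31 CPM in the 3 Oct4+ libraries, with 0 to 5 of the 8 markers at 0. That of 6 two-cell-like markers was 1.04 to 15.8 CPM in Pdgfra+ and DP and 239 to 820 CPM in Oct4+. The part of these cells in the results was not tested. The study describes the libraries of a group as biological replicates, and whether these were separate cultures or separate sorts is not given in the sources used here, so p-values measure the spread between these libraries.

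The ligand, coreceptor and Lefty genes separated Oct4+ from Pdgfra+ cells by larger fold changes than the receptor genes did, and DP was set apart by only some of them. Between Oct4+ and Pdgfra+ cells, 6 of the 8 tested genes passed edgeR's quasi-likelihood test at a Benjamini-Hochberg adjusted p below 0.05: Nodal, Gdf3, Tdgf1, Lefty1 and Lefty2 were higher in Oct4+ and Acvr2a was lower. These populations differ across the transcriptome, since 63.2% of the 14185 genes tested passed in this comparison, 31.8% as higher and 31.5% as lower in Oct4+. Between DP and Oct4+ cells, 6 of 8 also passed, against 56.2% of all genes: Nodal, Gdf3, Tdgf1 and Lefty1 were lower in DP, where 27.9% of all genes were lower, and Acvr1b and Acvr2a were higher, as were 28.3% of all genes. Between DP and Pdgfra+ cells the background was low, with 6.87% of genes called, and 3 of 8 passed. Gdf3, Tdgf1 and Acvr1b were higher in DP, against 4.62% of all genes, and none was lower, against 2.26%. The median log2 fold change of the 8 genes was 4.92 for Oct4+ against Pdgfra+, -1.70 for DP against Oct4+ and 2.59 for DP against Pdgfra+, beside 0.01, -0.04 and 0.02 over all genes tested. The 3 comparisons share libraries in pairs, and in bulk libraries fewer cells of a type and less RNA per cell cannot be told apart for any gene.

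**Figure D1:**
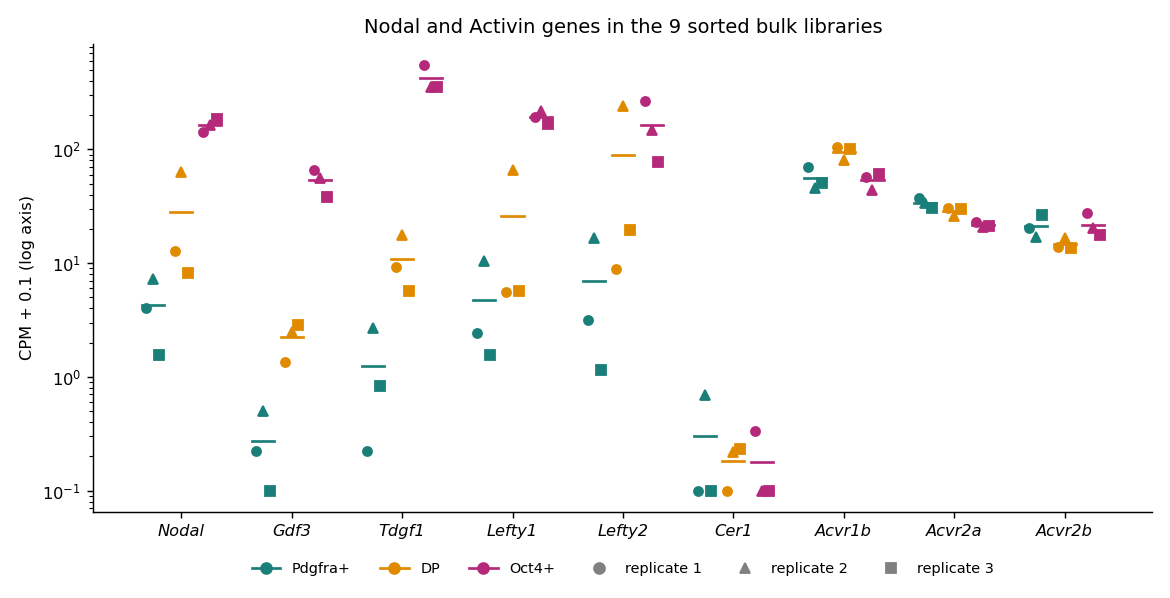
CPM plus 0.1 on a log axis of the 9 genes in each bulk library, by population (colour) and replicate number (symbol), with a bar at the mean of 3 libraries. Nodal, Gdf3, Tdgf1, Lefty1 and Lefty2 span 1 to 3 orders of magnitude between Pdgfra+ and Oct4+, while Acvr1b, Acvr2a and Acvr2b stay between 13.3 and 104 CPM in all 9 libraries; the DP triangle (replicate 2) stands above the other DP libraries for Nodal, Lefty1 and Lefty2.

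The labels number the libraries of each group and state no pairing. DP and Pdgfra+ libraries of the same number were treated as paired from these counts. Their deviations from the group means correlated by 0.271, 0.477 and 0.321. A fit with the number as a block on the 6 libraries of these groups called 6 of the 8 genes as higher in DP: Gdf3, Tdgf1 and Acvr1b and also Nodal, Lefty1 and Lefty2. Calls rose over all genes too, to 2536 of 12541 in either direction, from 975 of 14185 without the block. With the block on all 9 libraries 4 were called, the fourth being Nodal, beside 1165 of 14185 genes. In each number the 6 genes called on the 6 libraries were higher in DP, in 3 of 3 pairs. They were called on these same pairs, so this describes the calls and adds no separate support. Without the block the count rested on single libraries, and so did that over all genes. Without DP replicate 2, 0 of 8 passed edgeR's test, beside 148 of 14866 genes. Without Pdgfra+ replicate 3 it was again 0 of 8, beside 61 of 14797 genes. In each case 5 of 8 had an unadjusted p below 0.05 and DESeq2 called 2 of 8. The shares of all genes at these settings were not counted, so nothing is read from the unadjusted and DESeq2 counts.

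Nodal encodes the ligand itself and lies at chr10:61417972-61425338 on the plus strand (GRCm38, as are all gene positions here). It stood at 3.91, 7.07 and 1.46 CPM in Pdgfra+ replicates 1 to 3, at 12.6, 63.3 and 8.10 CPM in DP and at 143, 163 and 186 CPM in Oct4+. The 3 groups did not overlap, and DP replicate 2 lay above the other DP libraries in the way that Pdgfra+ replicate 2 lay above the other Pdgfra+ libraries. The log2 fold change was 5.29 ± 0.80 (SE, n = 3 against 3) for Oct4+ against Pdgfra+ (edgeR adjusted p = 0.000284). For DP against Oct4+ it was -2.54 ± 0.68 (edgeR adjusted p = 0.0096). For DP against Pdgfra+ it was 2.75 ± 0.76 and did not pass (edgeR adjusted p = 0.057). With the replicate block it was 2.53 ± 0.32 on the 6 libraries (edgeR adjusted p = 0.0184) and 2.53 ± 0.60 on all 9 (edgeR adjusted p = 0.0425). The fold change was 1.31 without DP replicate 2 (edgeR adjusted p = 0.196).

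Gdf3 encodes a second ligand, which is known to form heterodimers with Nodal, at chr6:122605403-122610087 on the minus strand. It stood at 0.122, 0.398 and 0 CPM in Pdgfra+, which is 1, 4 and 0 reads, at 1.25, 2.36 and 2.74 CPM in DP (10, 20 and 21 reads) and at 66.2, 55.5 and 38.0 CPM in Oct4+. The groups did not overlap, and the Gdf3 level in DP lay far nearer to Pdgfra+ than to Oct4+. It was called in all 3 comparisons, with log2 fold changes of 8.11 ± 0.57 for Oct4+ against Pdgfra+ (edgeR adjusted p = 3.56e-06), -4.65 ± 0.43 for DP against Oct4+ (2.05e-05) and 3.47 ± 0.66 for DP against Pdgfra+ (0.0203). The last rests on few reads and lost its call when any of 4 libraries was left out, at edgeR adjusted p of 0.0534 to 0.0697, those being DP replicates 2 and 3 and Pdgfra+ replicates 1 and 3. The replicate block kept the call (adjusted p = 0.0255 on 6 libraries, 0.0308 on 9).

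Tdgf1, the coreceptor gene at chr9:110939603-110946158 on the minus strand, had the largest fold change of the 8 tested genes between Oct4+ and Pdgfra+. It stood at 0.122, 2.59 and 0.731 CPM in Pdgfra+, at 9.23, 17.6 and 5.62 CPM in DP and at 548, 356 and 356 CPM in Oct4+. No group overlapped another. The log2 fold changes were 8.43 ± 0.66 for Oct4+ against Pdgfra+ (edgeR adjusted p = 5.97e-06), -5.27 ± 0.54 for DP against Oct4+ (3.63e-05) and 3.16 ± 0.64 for DP against Pdgfra+ (0.0238). The DP against Pdgfra+ call was lost without DP replicate 2, at 2.61 (edgeR adjusted p = 0.0800), and without Pdgfra+ replicate 3, at 2.90 (edgeR adjusted p = 0.0987). It held with the replicate block (adjusted p = 0.0184 and 0.0263).

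Lefty1 and Lefty2 encode the secreted inhibitors that bind Nodal and its coreceptor. They lie at chr1:180935022-180938400 and chr1:180893108-180899103, on the plus strand, with 35918 bases between them. In sequence, 17.9% of the 50-base words of the Lefty1 transcripts also occur in those of Lefty2, and 12% of those of Lefty2 in Lefty1. Reads from that stretch cannot be assigned to one gene, and their separate values are uncertain to that extent. Lefty1 stood at 2.32, 10.3 and 1.46 CPM in Pdgfra+, at 5.49, 66.0 and 5.62 CPM in DP and at 192, 218 and 166 CPM in Oct4+. Lefty2 stood at 3.05, 16.4 and 1.04 CPM in Pdgfra+, at 8.85, 241 and 19.3 CPM in DP and at 265, 149 and 77.0 CPM in Oct4+. Replicate 2 was the highest of both genes in Pdgfra+ and in DP. The Lefty2 level of DP replicate 2 lay within the range of the Oct4+ libraries, and its DP replicate 1 within that of Pdgfra+. DP replicates 1 and 3 of Lefty1 lay within the Pdgfra+ range, and no DP library reached the Oct4+ range.

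Both Lefty genes were higher in Oct4+ than in Pdgfra+, by a log2 fold change of 5.33 ± 1.05 for Lefty1 (edgeR adjusted p = 0.00137) and 4.56 ± 1.30 for Lefty2 (0.0111). Against Oct4+, DP was lower for Lefty1, at -2.89 ± 0.91 (edgeR adjusted p = 0.0202), a call that was lost without DP replicate 1 (0.0554) and without DP replicate 3 (0.0574). Lefty2 stood at -0.86 ± 1.09 in that comparison and did not pass (edgeR adjusted p = 0.523), while without DP replicate 2 it was -3.52 (0.0117). Against Pdgfra+, DP differed by 2.44 ± 0.97 for Lefty1 (edgeR adjusted p = 0.155) and 3.69 ± 1.26 for Lefty2 (0.107), neither of which passed. With the replicate block on the 6 libraries both passed, at 2.14 ± 0.31 and 3.40 ± 0.45 (edgeR adjusted p = 0.0184 for each), and with the block on all 9 neither did (0.0808 and 0.0598). Without DP replicate 2 and without the block the log2 fold changes were 0.22 for Lefty1 (edgeR adjusted p = 0.909) and 1.02 for Lefty2 (0.613). The summed epiblast markers of DP replicate 2 were 1131 CPM, beside 711 and 1120 CPM in DP replicates 1 and 3. Among its single markers Utf1 was at 185 CPM in DP replicate 2, beside 44.1 and 57.8 CPM in replicates 1 and 3, Nanog at 26.6 beside 9.60 and 12.0, and Sox2 at 24.3 beside 16.6 and 14.4. Zfp42 was at 56.9 CPM, beside 36.0 and 53.6. Other markers were not highest there. Pou5f1, Esrrb and Dppa5a were at 245, 53.5 and 537 CPM in DP replicate 2 and at 310, 66.7 and 603 in replicate 3. Fgf4 was at 2.71 CPM in DP replicate 2 and 3.24 in replicate 1. The two-cell-like sum was 15.8 CPM in DP replicate 2, beside 4.49 and 5.10, and the sum of 12 endoderm markers was 36732 CPM, beside 52206 and 43007. The part of these differences in the Lefty and Nodal values was not tested.

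**Figure D2:**
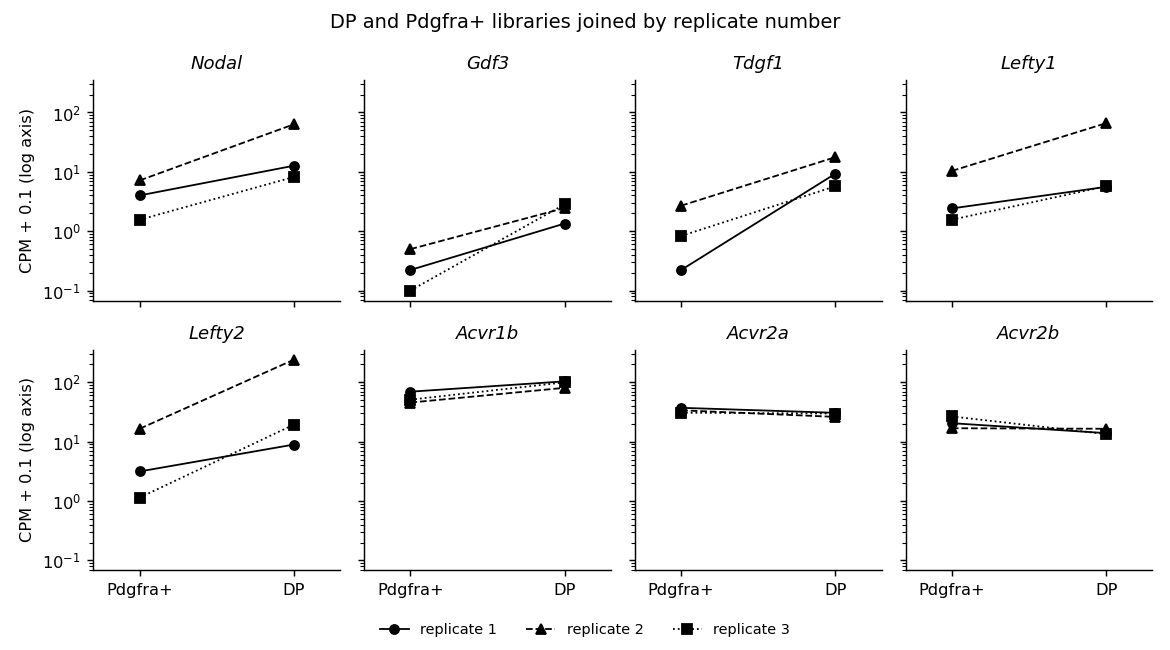
CPM plus 0.1 on a shared log axis of the 8 tested genes in Pdgfra+ and DP, with libraries of the same replicate number joined. Nodal, Gdf3, Tdgf1, Lefty1, Lefty2 and Acvr1b run upwards to DP in 3 of 3 numbers, with number 2 on top for Nodal, Tdgf1, Lefty1 and Lefty2, and Acvr2a and Acvr2b run slightly downwards.

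Cer1 (chr4:82881751-82885148, minus strand), the third secreted inhibitor, was at the limit of detection. It had 0, 6 and 0 reads in Pdgfra+, 0, 1 and 1 in DP and 3, 0 and 0 in Oct4+, and 2 UMIs in the -4OHT and 1 UMI in the +4OHT single-cell library. A difference between the groups was not detectable at this depth.

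The receptor genes were expressed in every library. Acvr1b, the type I receptor gene at chr15:101174067-101213684 on the plus strand, stood at 69.5, 45.5 and 50.9 CPM in Pdgfra+, at 104, 80.7 and 99.9 CPM in DP and at 57.2, 44.2 and 61.1 CPM in Oct4+. Its DP libraries lay above those of both other groups, and the share of all genes that do so is not given here. DP exceeded Oct4+ by 0.81 ± 0.19 (edgeR adjusted p = 0.0054) and Pdgfra+ by 0.78 ± 0.19 (0.0436), and Oct4+ and Pdgfra+ differed by -0.03 ± 0.19 (0.903). The call against Pdgfra+ held with the replicate block (adjusted p = 0.0184 and 0.0239), and without the block it was lost in 6 of the 9 fits that left out 1 library (adjusted p of 0.0558 to 0.154), those without DP replicate 1, 2 or 3, Pdgfra+ replicate 2 or 3 or Oct4+ replicate 1.

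Acvr2a, a type II receptor gene at chr2:48814109-48903269 on the plus strand, stood at 37.1, 33.7 and 30.7 CPM in Pdgfra+, at 30.5, 26.1 and 29.7 CPM in DP and at 22.9, 20.8 and 21.3 CPM in Oct4+. It was lower in Oct4+ than in Pdgfra+, at -0.64 ± 0.15 (edgeR adjusted p = 0.0043). It was higher in DP than in Oct4+, at 0.41 ± 0.15 (edgeR adjusted p = 0.0434), a call that 13 of 18 alternative fits lost (range of adjusted p 0.0358 to 0.315), among them those without DP replicate 1 or 3, Oct4+ replicate 2 or 3 or Pdgfra+ replicate 1. Acvr2b, the other type II receptor gene (chr9:119402118-119434995, plus strand), stood at 20.4, 16.7 and 26.5 CPM in Pdgfra+, at 13.8, 16.4 and 13.3 CPM in DP and at 27.5, 20.2 and 17.4 CPM in Oct4+. None of its comparisons passed: the log2 fold changes were -0.55 ± 0.24 for DP against Pdgfra+ (edgeR adjusted p = 0.192), -0.58 ± 0.24 for DP against Oct4+ (0.0629) and 0.04 ± 0.24 for Oct4+ against Pdgfra+ (0.904).

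**Figure D3:**
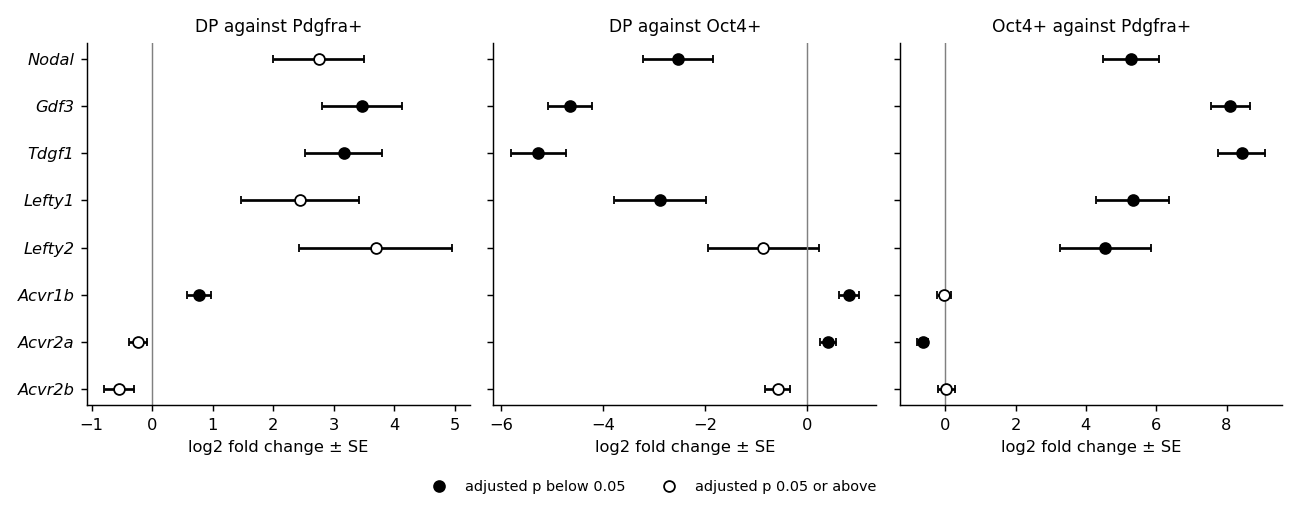
Log2 fold change ± SE of the 8 tested genes in the 3 comparisons (edgeR, 3 libraries per group, no replicate block), with filled points for adjusted p below 0.05. Nodal, Gdf3, Tdgf1, Lefty1 and Lefty2 lie on the same side within a comparison, and the receptor genes lie within 0.81 of 0.

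Per kilobase of exon, the order of the 9 genes changed between populations. In Oct4+ the highest mean levels were those of Tdgf1 (160 CPM per kb, libraries 136 to 209), Lefty1 (109, libraries 94.3 to 124), Nodal (78.2, libraries 68.0 to 88.8) and Lefty2 (62.6, libraries 29.5 to 102), and the range of Lefty2 overlapped those of Nodal and Lefty1. In Pdgfra+ the receptor genes came first, Acvr1b at 12.5 CPM per kb (10.3 to 15.7), Acvr2a at 5.95 (5.40 to 6.53) and Acvr2b at 5.40 (4.26 to 6.75), and the ranges of Acvr2a and Acvr2b overlapped. In DP the library ranges of Lefty2 (3.39 to 92.4 CPM per kb), Lefty1 (3.12 to 37.5) and Nodal (3.87 to 30.2) each enclosed the Acvr1b range of 18.3 to 23.5, so that those 4 had no order beyond their spread.

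The promoter sequences of Nodal, Tdgf1 and Acvr1b are shown as those of the ligand, its coreceptor and the type I receptor, the last being the gene that was highest in DP. RefSeq (GRCm38.p6) gave the 300 bases around the start site, 250 before and 50 after, for 6 of the 9 genes. Lefty1, Lefty2 and Gdf3 had no entry, so their promoters were not searched for motifs. They are printed on the strand of the gene, in lower case, with matches to the SMAD-binding letters CAGAC in capitals. Nodal lies on chromosome 10, plus strand (chr10:61417722-61418021), Tdgf1 on chromosome 9, minus strand (chr9:110946109-110946408), and Acvr1b on chromosome 15, plus strand (chr15:101173822-101174121).
Nodal: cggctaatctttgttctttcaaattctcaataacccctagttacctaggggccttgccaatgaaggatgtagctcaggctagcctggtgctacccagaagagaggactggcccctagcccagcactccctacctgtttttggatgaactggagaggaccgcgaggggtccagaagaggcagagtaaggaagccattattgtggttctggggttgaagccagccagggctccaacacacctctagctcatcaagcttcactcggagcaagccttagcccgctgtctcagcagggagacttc
Tdgf1: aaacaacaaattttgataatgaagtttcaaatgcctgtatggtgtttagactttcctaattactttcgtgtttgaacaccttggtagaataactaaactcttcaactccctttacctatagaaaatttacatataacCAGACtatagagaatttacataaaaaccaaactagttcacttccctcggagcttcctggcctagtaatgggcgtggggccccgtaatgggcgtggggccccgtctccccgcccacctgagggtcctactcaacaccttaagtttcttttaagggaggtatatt
Acvr1b: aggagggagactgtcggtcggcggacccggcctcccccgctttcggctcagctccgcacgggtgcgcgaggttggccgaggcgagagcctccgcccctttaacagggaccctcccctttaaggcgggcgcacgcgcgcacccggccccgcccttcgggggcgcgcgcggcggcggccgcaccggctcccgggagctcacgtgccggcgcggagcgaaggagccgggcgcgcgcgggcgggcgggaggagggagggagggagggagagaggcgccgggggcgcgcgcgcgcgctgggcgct

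The 3 receptor genes had GC-rich promoters, with 79.7% G or C for Acvr1b, 80.3% for Acvr2a and 73.3% for Acvr2b, all above the upper quartile of 61.7% over the 32851 promoters in the table. Nodal stood at 54% and Cer1 at 51.7%, near the median of 52.7%, and Tdgf1 at 41.7%, below the lower quartile of 45.7%. On either strand, CAGAC occurred once each in the Tdgf1, Cer1, Acvr2a and Acvr2b windows and not in those of Nodal and Acvr1b, against 49.6% of all promoters with at least 1 match. The FOXH1 letters AATNCACA (3.6% of all promoters), the SMAD palindrome GTCTAGAC (0.213%) and the octamer ATGCAAAT of OCT4 (1.74%) had no match in the 6 windows. With matches to CAGAC alone, at most 1 per window, no overlap between motifs was possible.

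The rest of the pathway was read from a list of 37 genes, of which 28 were tested. Between Oct4+ and Pdgfra+ 21 passed, 7 higher and 14 lower in Oct4+, with a median log2 fold change of -0.44. Between DP and Oct4+ 14 passed, 9 higher and 5 lower in DP, with a median of 0.24. Between DP and Pdgfra+ 5 passed, 4 higher and 1 lower, with a median of -0.15. With the replicate block on the 6 libraries 10 passed (5 higher, 5 lower), where 2536 of 12541 genes were called in all. Without the block, shares of 75%, 50% and 17.9% of the tested genes were thus called, beside 63.2%, 56.2% and 6.87% of all genes.

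Of the genes of proteases that cleave the Nodal precursor, Pcsk6 was lowest in Pdgfra+, with a mean of 7.62 ± 4.49 CPM (SD, n = 3) in Pdgfra+, 74.3 ± 26.0 in DP and 84.6 ± 19.1 in Oct4+. It was higher in DP than in Pdgfra+ by 3.29 ± 0.47 on the log2 scale (edgeR adjusted p = 0.0110), and DP and Oct4+ differed by -0.19 ± 0.42 (0.723). Furin had the opposite order between the outer groups, with 109 ± 35.1 CPM in Pdgfra+, 173 ± 33.4 in DP and 24.0 ± 7.79 in Oct4+. It was higher in DP than in Oct4+ by 2.85 ± 0.30 (edgeR adjusted p = 4.23e-05). Of the Activin subunit genes, Inhbb rose in Oct4+ over Pdgfra+ by 6.66 ± 0.62 (edgeR adjusted p = 1.51e-05), from 0.291 ± 0.0790 to 30.5 ± 20.7 CPM.

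Foxh1, which encodes the DNA-binding partner of SMAD2 and SMAD3 at Nodal targets, stood at 3.13 ± 1.25 CPM in Pdgfra+, 33.3 ± 29.4 in DP and 49.0 ± 3.63 in Oct4+, with DP replicate 2 at 67.3 and the other DP libraries at 16.6 and 15.9. It was higher in DP than in Pdgfra+ by 3.42 ± 0.58 (edgeR adjusted p = 0.0172). Smad3 ran the other way, at 68.4 ± 18.0, 24.9 ± 9.86 and 11.6 ± 6.07 CPM, and was lower in DP than in Pdgfra+ by -1.46 ± 0.38 (edgeR adjusted p = 0.0499). With the block that call had an adjusted p of 0.0184 on 6 libraries and 0.0669 on 9. Smad2 was lower in Oct4+ than in both other groups, at -1.09 ± 0.13 against Pdgfra+ (edgeR adjusted p = 6.75e-05).

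Among the extracellular inhibitors, Fst, whose product follistatin traps Activin, and Bambi, which encodes a pseudoreceptor, ran in opposite directions. The Fst level was 390 ± 166 CPM in Pdgfra+, 123 ± 101 in DP and 8.95 ± 10.8 in Oct4+, and it was lower in Oct4+ than in Pdgfra+ by -5.45 ± 0.98 (edgeR adjusted p = 0.000835). DP against Pdgfra+ was -1.66 ± 0.82 for Fst (edgeR adjusted p = 0.236), and -1.95 ± 0.29 with the block on 6 libraries (0.0184). Bambi stood at 4.79 ± 1.66 CPM in Pdgfra+, 5.80 ± 2.54 in DP and 19.3 ± 4.71 in Oct4+, higher in Oct4+ than in Pdgfra+ by 2.0 ± 0.37 (edgeR adjusted p = 0.00103) and lower in DP than in Oct4+ by -1.72 ± 0.37 (0.00291). Inha, which encodes the inhibin subunit, was lower in Oct4+ than in Pdgfra+ by -2.03 ± 0.63 (edgeR adjusted p = 0.0172). Fstl3 had the highest difference of this role for DP against Pdgfra+, 0.42 ± 0.35, which did not pass (edgeR adjusted p = 0.481).

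Smad7, an intracellular feedback inhibitor, was higher in DP than in Pdgfra+ by 0.82 ± 0.18 (edgeR adjusted p = 0.0338) and in Oct4+ than in Pdgfra+ by 2.14 ± 0.19 (1.15e-05). Tgif1, a SMAD corepressor gene, was also higher in Oct4+ than in Pdgfra+, by 1.65 ± 0.11 (edgeR adjusted p = 3.27e-06). Pmepa1 and the ubiquitin ligase gene Smurf1 were lower, by -1.56 ± 0.13 and -1.22 ± 0.14 (edgeR adjusted p = 7.97e-06 and 5.67e-05). In DP against Oct4+ these 3 passed as well, at -1.54 for Tgif1, 1.68 for Pmepa1 and 0.88 for Smurf1. Of the mesendoderm targets, Eomes was higher in DP than in Pdgfra+ by 1.39 ± 0.27 (edgeR adjusted p = 0.0217). Tgfbr2, the type II receptor gene for TGF-β ligands, fell by 5.38 ± 0.44 in Oct4+ against Pdgfra+ (edgeR adjusted p = 7.58e-06), a larger difference than the -0.64 of Acvr2a in the same comparison. Tgfbr3 and Tgfbr1 were also lower there, at -3.69 ± 0.51 and -1.19 ± 0.21 (edgeR adjusted p = 0.000165 and 0.000661), as was the ligand gene Tgfb1, at -1.18 ± 0.41 (0.0281). The coreceptor gene Cfc1 stood at 0.52 ± 1.04 for DP against Pdgfra+ and did not pass (edgeR adjusted p = 0.788).

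The genes whose log2 CPM over the 9 libraries was most like each member were named by Pearson's r among 9603 genes, as a description over libraries that form 3 groups. For Nodal they were Rmdn3 (0.986), Lefty1 (0.982) and Ggct (0.981), and for Tdgf1 they were Cyp2b23 (0.996), Rimklb (0.994) and Nanog (0.994). Gdf3 ran with Chchd10 (0.996), Hsf2bp (0.993) and Syk (0.993). Lefty1 ran with Ggct (0.994), Strbp (0.990) and Mak16 (0.990), and Lefty2 with Zpr1 (0.994), Odc1 (0.982) and Plaa (0.981). The receptor genes had other neighbours, Cd68 (0.971), Cd38 (0.961) and Gjb5 (0.947) for Acvr1b, Ccdc82 (0.985), Pigm (0.983) and Slc66a2 (0.980) for Acvr2a, and Fnbp4 (0.942) and Cul1 (0.912) for Acvr2b.

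In the single-cell libraries 5113 of 6896 barcodes (-4OHT) and 6298 of 7283 barcodes (+4OHT) were kept, with medians of 17627 and 12645.5 UMIs, and 21 barcodes occurred in both libraries. Doublet calling removed 211 barcodes (3.96%) from -4OHT and 1 (0.0159%) from +4OHT, so that it did not work in the second library. The 9 genes and the pathway list took no part in the clustering. The -4OHT library held 3620 epiblast-like and 1316 endoderm-like cells, and the +4OHT library held 0 epiblast-like and 6062 endoderm-like cells, where a count of 0 of 6298 allows a share of up to 0.0476%. Endoderm-like cells formed clusters led by Gkn1 (181 cells in -4OHT, 3843 in +4OHT), Car4 (458 and 2192) and Amn (677 and 27), so that different clusters held most of the class in the 2 libraries. Epiblast-like cells formed clusters led by Eras (2308) and Calcoco2 (1312), in -4OHT. Pou5f1 stood at 13.3 CPM of UMIs in the endoderm-like cells of -4OHT and at 1.74 in those of +4OHT, and whether the counted 3' end lies in the deleted part is not given in the sources used here. With 1 library per condition there is no test, and all intervals are 95% intervals for counting error only, exact Poisson for levels and exact binomial for shares.

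Epiblast-like cells held the ligand, coreceptor and Lefty transcripts, and both classes held the receptor transcripts. In the epiblast-like cells of -4OHT, Nodal stood at 58.6 CPM of UMIs (56.8 to 60.4), Gdf3 at 111 (109 to 114), Tdgf1 at 349 (345 to 353), Lefty1 at 108 (106 to 111) and Lefty2 at 85.3 (83.2 to 87.5). In the endoderm-like cells of the same library these were 2.41 (1.79 to 3.19), 4.24 (3.39 to 5.23), 10.9 (9.54 to 12.5), 17.8 (16.0 to 19.8) and 20.2 (18.3 to 22.3) CPM. Acvr1b stood at 8.77 (8.10 to 9.49) in epiblast-like and 10.5 (9.17 to 12.1) in endoderm-like cells, Acvr2a at 9.05 (8.37 to 9.78) and 11.2 (9.77 to 12.7), and Acvr2b at 38.1 (36.7 to 39.6) and 21.7 (19.7 to 23.8).

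The transcripts were spread over epiblast-like cells in different ways. A UMI of Tdgf1 was found in 90.8% of these cells, of Gdf3 in 74.8%, of Nodal in 61.8%, of Lefty2 in 46.5% and of Lefty1 in 39.6%. Thinned to 5000 UMIs per cell, the shares were 70.5%, 37.6%, 25.7%, 24.5% and 22.0%. In the 19 fibroblast-like cells of the same library, which should lack these transcripts, the unthinned shares were 26.3%, 0%, 21.1%, 21.1% and 15.8%, at a median of 26682 UMIs per cell against 18919 in epiblast-like cells. Lefty1 was the most uneven, since the tenth of the cells with most Lefty1 held 72.3% of its UMIs, against 57.3% for Lefty2, 35.0% for Nodal, 33.3% for Gdf3 and 28.8% for Tdgf1. Up to 102 UMIs of Lefty1 were found in a single cell, beside at most 15 of Nodal.

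Within epiblast-like cells thinned to 5000 UMIs, the Lefty genes occurred together. Lefty2 was found in 48.7% (45.2 to 52.3) of the 790 cells with Lefty1 and in 17.7% (16.3 to 19.2) of the 2797 cells without it. Lefty1 was found in 28.8% (25.9 to 31.9) of the 923 cells with Nodal and in 19.7% (18.2 to 21.2) of the 2664 without it. Tdgf1 was found in 69.7% (66.6 to 72.6) and 70.8% (69.0 to 72.5) of these, so that its intervals overlapped. The shared words of the Lefty transcripts bear on the first pair of values.

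The 2 epiblast-like clusters differed in level and not in kind. Tdgf1 stood at 404 CPM (398 to 410) in the Eras cluster and 255 (249 to 261) in the Calcoco2 cluster, and Lefty2 at 95.8 (92.9 to 98.7) and 67.3 (64.2 to 70.5). Nodal stood at 60.6 (58.4 to 63.0) and 55.0 (52.2 to 57.9), and Lefty1 at 113 (110 to 116) and 99.8 (96.0 to 104).

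**Figure D4:**
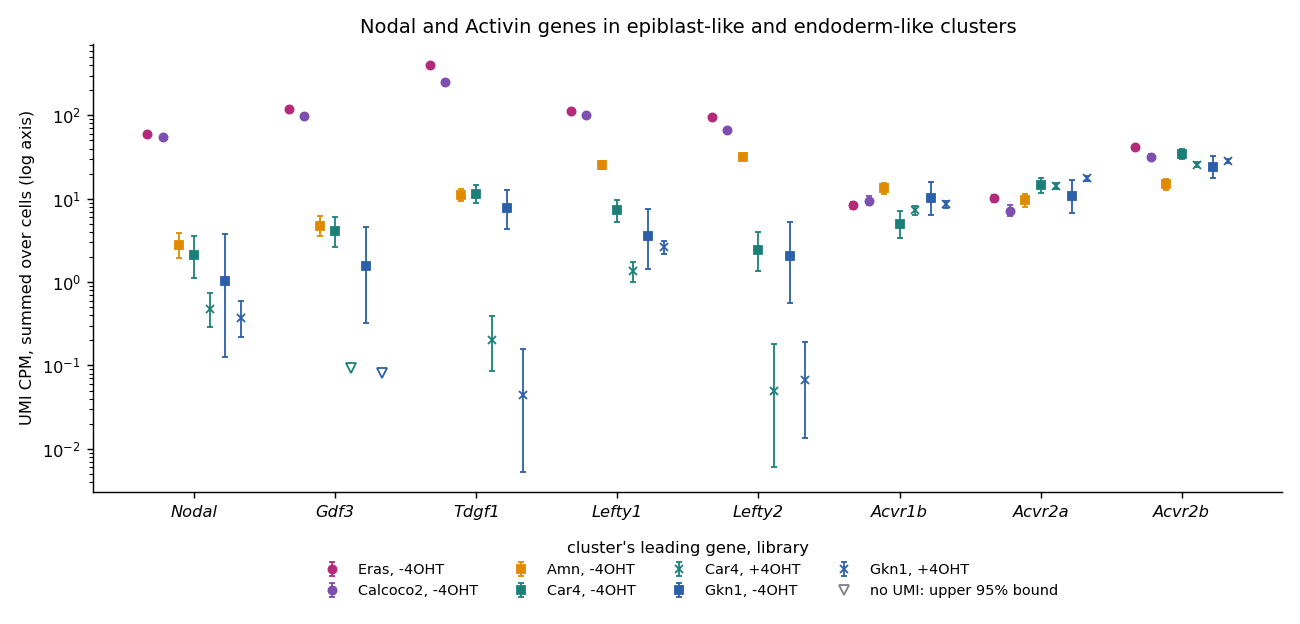
UMI CPM on a log axis, summed over the cells of a cluster, for 8 of the 9 genes in the epiblast-like clusters (circles) and the endoderm-like clusters (squares for -4OHT, crosses for +4OHT), with 95% Poisson intervals for counting error; open triangles mark the upper bound where no UMI was found, and the Amn cluster of +4OHT (27 cells) is not drawn. Nodal, Gdf3 and Tdgf1 lie lower in the endoderm-like clusters drawn than in the epiblast-like ones, Lefty1 and Lefty2 stand higher in the Amn cluster than in the Car4 and Gkn1 clusters, and the receptor genes lie between 5.03 and 41.7 CPM throughout.

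Lefty1 and Lefty2 stood apart from Nodal, Gdf3 and Tdgf1 in the endoderm-like cells of -4OHT. In the Amn cluster Lefty1 was at 25.4 CPM (22.7 to 28.4) and Lefty2 at 32.1 (29.0 to 35.5), whereas the Car4 cluster had 7.30 (5.32 to 9.77) and 2.43 (1.36 to 4.01) and the Gkn1 cluster 3.61 (1.45 to 7.44) and 2.06 (0.563 to 5.29). Nodal was at 2.79 (1.93 to 3.89), 2.11 (1.12 to 3.61) and 1.03 (0.125 to 3.73) CPM in the Amn, Car4 and Gkn1 clusters, and Tdgf1 at 11.1 (9.35 to 13.2), 11.5 (9.0 to 14.5) and 7.74 (4.33 to 12.8). The cluster with most Lefty UMIs was thus not one with more Nodal or Tdgf1 beyond counting error. Pou5f1 was at 19.8 CPM (17.4 to 22.5) in the Amn cluster, beside 4.06 and 2.06 in the Car4 and Gkn1 clusters.

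Few cells carried these transcripts. Lefty2 was found in 85 and Lefty1 in 59 of the 677 Amn-cluster cells, and 2 cells held 52.9% of the Lefty1 UMIs and 20.4% of the Lefty2 UMIs. With the UMIs of those top cells left out, Lefty1 was at 12.0 CPM and Lefty2 at 25.6 CPM in the Amn cluster, so that the Lefty1 level there fell by over 2-fold and the Lefty2 level by less. Thinned to 5000 UMIs, Lefty2 was found in 55.0% (31.5 to 76.9) of the 20 Amn-cluster cells with Lefty1 and in 5.44% (3.80 to 7.52) of the 625 without it. Tdgf1 was found in 13.3% (5.05 to 26.8) of the 45 cells with Lefty2 and 5.17% (3.54 to 7.25) of the 600 without it, with intervals that overlapped, and Nanog in 0% (0 to 7.87) and 2.67% (1.53 to 4.29).

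Free RNA from the epiblast-like majority can put UMIs into endoderm-like droplets, so each level was set against the epiblast-like level. Fgf4, Nanog and Sox2, which are made by the epiblast, stood at 2.02% to 4.29% of their epiblast-like CPM in the 3 endoderm-like clusters. Gdf3 (1.39% to 4.27%) and Tdgf1 (2.22% to 3.30%) lay in or below that range, and Nodal (1.76% to 4.76%) reached 4.76% (3.29 to 6.66) in the Amn cluster, an interval that holds the upper end of it. Those 3 epiblast genes were chosen after their values were seen and are the lowest of the 8 epiblast markers in the Amn cluster. How much of the Nodal, Gdf3 and Tdgf1 UMIs in endoderm-like cells is free RNA was not tested. Lefty1 and Lefty2 were at 23.5% (20.9 to 26.3) and 37.7% (33.9 to 41.7) in the Amn cluster, and in the Car4 and Gkn1 clusters at 2.42% to 6.75%. In the 19 fibroblast-like cells of -4OHT, Nodal was at 19.5% (7.15 to 42.5), Gdf3 at 0% (0 to 6.31) and Tdgf1 at 11.5% (7.09 to 17.5). Lefty1 was at 7.05% (1.92 to 18.0) there and Lefty2 at 20.1% (9.18 to 38.2), an interval that overlapped that of the Amn cluster. The 8 epiblast markers had a median of 12.3% (9.43% to 18.5%) in those fibroblast-like cells. Over the 8 epiblast markers the median was 17.3% in the Amn cluster (2.02% to 65.2%, with Pou5f1 at 41.0% and Dppa5a highest), 4.63% in the Car4 cluster and 3.69% in the Gkn1 cluster. The Lefty genes in the Amn cluster were thus within the range of the epiblast list and above its lower members.

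**Figure D5:**
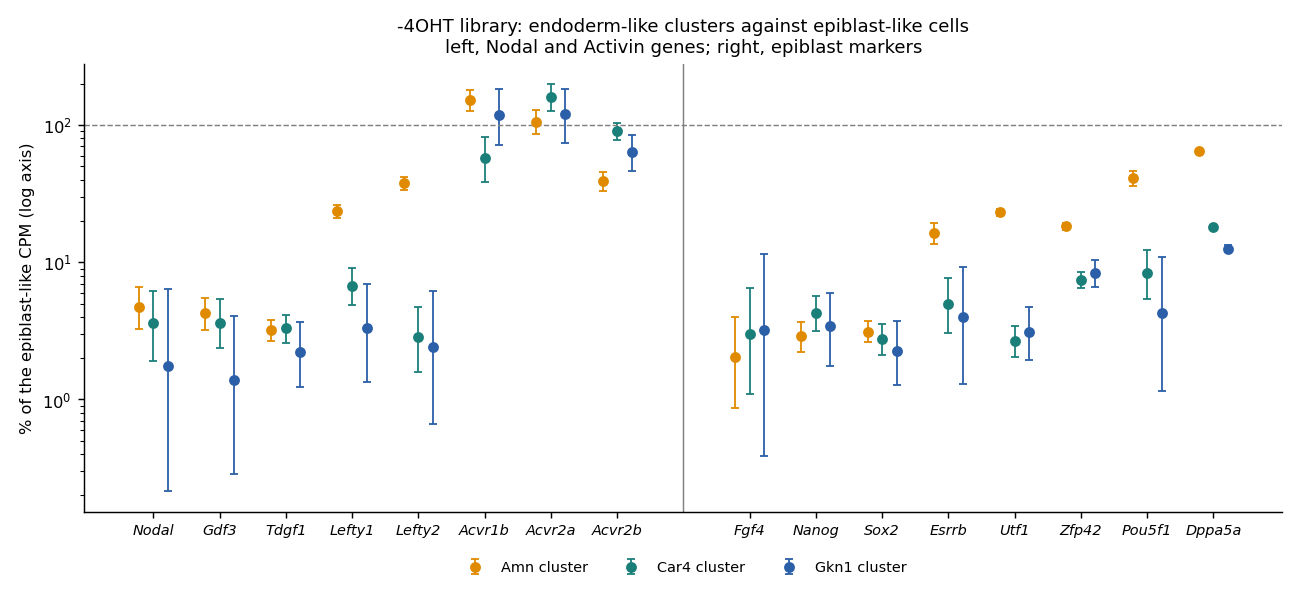
UMI CPM in the endoderm-like clusters of the -4OHT library as a percentage of the CPM in epiblast-like cells, on a log axis with 95% counting intervals, for 8 of the 9 genes (left) and 8 epiblast markers (right). Nodal, Gdf3 and Tdgf1 lie with Fgf4, Nanog and Sox2 at 1.39% to 4.76%, Lefty1 and Lefty2 reach 23.5% and 37.7% in the Amn cluster, and the receptor genes lie at 38.9% to 159%, around the dashed line at 100%.

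With 4OHT, when no epiblast-like cells were present, the endoderm-like cells held almost none of the ligand and coreceptor transcripts. Nodal was at 0.421 CPM (36 UMIs in 6062 cells), Gdf3 at 0 UMIs (at most 0.0431 CPM), Tdgf1 at 0.117 CPM (10 UMIs), Lefty1 at 2.02 (173 UMIs) and Lefty2 at 0.0585 (5 UMIs). The ratio of +4OHT to -4OHT was 0.0107 for Tdgf1 (0.00506 to 0.0200), 0.113 for Lefty1 (0.0941 to 0.136) and 0.00289 for Lefty2 (0.000933 to 0.00680). Of the 6 members that reached 10 CPM in 1 of the libraries these 3 were past 2-fold, beside 3.79% of the 8682 genes of that level. They reached 10 CPM through -4OHT alone, so that a lower value in +4OHT was built into their selection and nothing is read from this count. For Gdf3, with 86 UMIs in -4OHT and 0 in +4OHT, the interval of the ratio of -4OHT to +4OHT had a lower limit of 96.1. How much of these ratios is free RNA or a change in the cells was not tested, since the Amn cluster, which held most Lefty UMIs, had 27 cells in +4OHT, and the epiblast-like source of free RNA was absent there too.

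Within the same cluster the comparison was narrower. In the Car4 cluster 3 members were at that level, Tdgf1, Acvr2a and Acvr2b, and 1 was past 2-fold, beside 0.801% of genes. This was Tdgf1, at a ratio of 0.0174 (0.00722 to 0.0361), which again reached the level through -4OHT alone. In the Gkn1 cluster the 3 members at that level were the receptor genes, and 0 of 3 were past 2-fold, beside 1.08%. The low genes there were Tdgf1, with 15 UMIs in -4OHT and 2 in +4OHT (ratio 0.00569, 0.000631 to 0.0245), and Lefty2, with 4 and 3 UMIs (ratio 0.0320, 0.00469 to 0.189). Lefty1 was at 3.61 CPM (7 UMIs) in the Gkn1 cluster of -4OHT and at 2.62 (119 UMIs) in that of +4OHT, a ratio of 0.726 (0.341 to 1.84). In the Car4 cluster the ratio was lower, at 0.185 (0.122 to 0.281) for Lefty1 and 0.0206 (0.00228 to 0.0884) for Lefty2. The Lefty1 UMIs of the Gkn1 cluster of +4OHT were spread thinly, in 112 of 3843 cells and at most 3 to a cell. In the 32 fibroblast-like cells of +4OHT no Lefty1 UMI was found, which allows up to 3.84 CPM.

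The receptor transcripts were present with and without 4OHT. In endoderm-like cells the ratio of +4OHT to -4OHT was 0.757 (0.648 to 0.886) for Acvr1b, 1.43 (1.24 to 1.65) for Acvr2a and 1.24 (1.12 to 1.38) for Acvr2b. With a stricter filter on cells the log2 ratio was 0.21 for Acvr1b and -0.16 for Acvr2b, each in the other direction. Within the Car4 cluster the ratio was 1.45 (0.997 to 2.17) for Acvr1b, 0.984 (0.785 to 1.24) for Acvr2a and 0.742 (0.639 to 0.864) for Acvr2b. Within the Gkn1 cluster it was 0.830 (0.530 to 1.37), 1.62 (1.05 to 2.63) and 1.16 (0.870 to 1.59). The part of the different cluster shares in the pooled ratios was not tested. Acvr2b was lowest in the Amn cluster, at 14.8 CPM (12.8 to 17.2) against 34.6 (30.1 to 39.5) in the Car4 cluster of -4OHT. Acvr1b was higher in the Amn than in the Car4 cluster, at 13.4 (11.4 to 15.6) against 5.03 (3.42 to 7.14). The Gkn1 cluster of -4OHT had Acvr2b at 24.3 CPM and Acvr1b at 10.3 CPM, the latter from 20 UMIs. As a percentage of the epiblast-like CPM, the Acvr1b intervals of the Gkn1 (71.4 to 183) and Amn (127 to 181) clusters overlapped. Fst stood at 261 CPM in the endoderm-like cells of -4OHT, 490 CPM in those of +4OHT and 11.6 CPM in epiblast-like cells, and Inhba, the Activin A subunit gene, was at 0.0936 CPM or less in each.

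Trophectoderm-like cells were few, and their Lefty levels rested on single cells. The 37 such cells of -4OHT had 378 CPM of Lefty1 (321 to 441) and 366 of Lefty2 (310 to 428), with Nodal at 50.2 (31.1 to 76.7) and Tdgf1 at 47.8 (29.2 to 73.8). The UMIs came from 9 cells for Lefty1 and 7 for Lefty2, and up to 72 and 54 were found in a single cell. The 2 cells with most held 73.4% of the Lefty1 and 62.7% of the Lefty2 UMIs. Without the UMIs of those cells Lefty1 was at 100.4 CPM and Lefty2 at 136 CPM, beside 108 and 85.3 in epiblast-like cells. The 200 such cells of +4OHT had Lefty1 at 2.66 CPM (1.27 to 4.89) and Lefty2 at 47.3 (40.6 to 54.8), the latter from 11 cells, with up to 62 UMIs in 1 of them and 15.9 CPM without the 2 cells with most, and Nodal at 16.2 (12.4 to 20.8). In the 121 two-cell-like cells of -4OHT, Tdgf1 was at 449 CPM (420 to 479), Nodal at 57.9 (47.9 to 69.4) and Gdf3 at 38.1 (30.1 to 47.6).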

How the data were processed

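Sorted OCT4-mCherry nEnd (9 bulk libraries, directional NEBNext kit) and Oct4-LOF nEnd (2 droplet libraries) were grouped as the labels state. The authors deposited the bulk data as raw read counts per gene (48952 genes, and 35 lines with no gene name, left out). Which aligner, counter and strand setting produced them is not given in the sources used here, and 0 columns belonged to other series. The authors deposited the single-cell data as UMI counts from Cell Ranger (6.1.2 per the file headers, mm10), which count 3' ends. The members and lists were chosen with earlier results of these data known. The study's own tests, run with DESeq2, were not used.

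Counts were tested in edgeR 4.0.16 (R 4.3.3; filterByExpr, TMM factors, quasi-likelihood test, group as the only term, all 9 libraries, Benjamini-Hochberg adjustment over 14185 genes, threshold 0.05). The test was checked on simulated data. CPM were counts scaled to a common TMM-scaled library size (totals of 8019631 to 11642571 reads), and SE was the log2 fold change over the root of F. Libraries of a group differed beyond sampling noise (chi-square per degree of freedom 16.7 to 36.6), so none was counted as a repeat. Deviations from the group means correlated by 0.271, 0.477 and 0.321 between DP and Pdgfra+ libraries of the same number, which the titles give, so these were treated as paired. DESeq2 1.42.0, other scalings, filters, blocks and left-out libraries were alternatives.

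Cells with at least 1000 genes and at most 10% mitochondrial counts were kept, called doublets (Scrublet) removed, and cells clustered (scanpy 1.11.5, leidenalg 0.10.2, Python 3.11.15; 2000 variable genes without the 9 genes and the pathway list, 20 components, 20 neighbours, resolution 0.2). Clusters were named from marker lists with at least 3 markers at 2-fold or more. UMIs were summed per class. Intervals and floors (3 counts) cover counting error only.

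Pathway genes are named where they passed in 2 or more comparisons or held the extreme fold change of their role, beside Pou5f1 and Pdgfra and the 3 genes most like each member (log2 CPM, prior count 2, mean CPM of at least 10). Fgf4, Nanog, Sox2, Utf1, Dppa5a, Esrrb, Zfp42 and Inhba were named after their values were seen. Some genes that this rule names are not reported here.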

Additional observations from a re-analysis of the deposited data

How the results depend on the processing

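DP against Pdgfra+ was the comparison that moved most with the processing. Its 3 called members became 5 with DESeq2, 6 without a filter on low counts, 6 with the replicate block on the 6 libraries and 0 with replicate number 2 left out of all groups, an alternative chosen after seeing the data, where 7 of 8 had an unadjusted p below 0.05, DESeq2 called 5 of 8 and edgeR called 3 genes in all. Leaving out 1 library gave 0 to 4. Calls over all genes moved too, from 975 of 14185 to 1872 with DESeq2, 1892 of 28233 without a filter and 2536 of 12541 with the replicate block on the 6 libraries. They ranged from 61 to 1382 with 1 library left out. The 5 called genes of the pathway list became 8 with DESeq2, 10 without a filter, 10 with the replicate block on the 6 libraries, 9 with the block on all 9 libraries and 0 with number 2 left out, where 10 of 28 had an unadjusted p below 0.05 and DESeq2 called 4. Leaving out 1 library gave 1 to 6. The cause was not tested. Shares of all genes at an unadjusted p, and by DESeq2 with libraries left out, were not counted, so nothing is read from those counts. In the other comparisons the counts of members stayed at 4 to 7 for DP against Oct4+ and 5 to 6 for Oct4+ against Pdgfra+. The replicate numbers did not pair Oct4+ with Pdgfra+ (correlations of 0.0383, -0.00412 and -0.0465) or DP with Oct4+ (0.0222, -0.0728 and 0.152), and with the block on the 6 libraries the member counts were 6 and 5. For Oct4+ against Pdgfra+ the Acvr1b difference, -0.03 and not called, turned to 0.0522 with DESeq2, 0.0520 with RLE factors, 0.22 with upper-quartile factors, 0.0752 with the stricter filter, 0.0056 on only the 6 libraries, 0.0129 with the replicate block on them and 0.0315 with number 2 left out, and ranged from -0.18 to 0.18 over the fits without 1 library, turning without Oct4+ replicate 2 and without Pdgfra+ replicate 1. The Acvr2b difference, 0.04 and not called, ranged over the fits without 1 library from -0.19 without Oct4+ replicate 1 to 0.20 without Pdgfra+ replicate 3, turning also without Pdgfra+ replicate 2 (-0.14), and was 0.29 with upper-quartile factors and -0.0020 with number 2 left out. Upper-quartile factors moved the median of all genes from -0.043 to -0.264 for DP against Oct4+ and to 0.265 for Oct4+ against Pdgfra+. Of the 432 alternative fold changes of single members, 370 kept direction and call. In single cells, the stricter cell filter turned the log2 ratio of +4OHT to -4OHT to 0.21 for Acvr1b and -0.16 for Acvr2b, and Lefty1 ranged from -3.95 with that filter to -2.0 with none. Depth limits Cer1 in all libraries and Gdf3 in Pdgfra+.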
